A study of Mus musculus with 13 samples.

Results

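The SIBLING genes Dspp, Dmp1, Spp1, Ibsp and Mepe encode secreted phosphoproteins of dentin and bone, and they were chosen by symbol as 5 of the 34709 genes counted in mouse lower incisors. All 5 passed the low-count filter that left 17837 genes for testing. RNA was sequenced from lower incisors of male mice at postnatal day 5 to study the role of the vitamin D receptor. Of the 13 libraries, 5 came from control mice, 3 from VDRgem mice and 5 from VDR-null mice, with no treatment stated for any group. The VDRgem receptor is known to answer synthetic gemini ligands and to be unresponsive to calcitriol, while VDR-null animals have no functional receptor. Strain, litter, diet and the exact alleles are not given in the labels. The incisors are called independent, but no label ties a library to an animal, and the p-values therefore describe spread between incisors. The teeth are described as pulled before freezing, read here as extracted. If pooled was meant, a library would hold more than a single tooth or animal. A library can hold RNA of pulp, of dentin- and enamel-forming cells and of attached tissue.

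SIBLING stands for small integrin-binding ligand, N-linked glycoprotein. The proteins are secreted into collagen matrix, are heavily phosphorylated, bind calcium, and carry an arginine-glycine-aspartate motif through which integrins on nearby cells can bind. Dspp, dentin sialophosphoprotein, is the main noncollagenous protein product of odontoblasts, and Dmp1, dentin matrix protein 1, is made by odontoblasts and osteocytes. Ibsp, bone sialoprotein, promotes mineral nucleation in bone and cementum. Spp1, osteopontin, inhibits crystal growth and anchors osteoclasts to mineral. Mepe, matrix extracellular phosphoglycoprotein, is made by osteocytes and odontoblasts and is cut into a peptide that inhibits mineral formation. Vitamin D signalling is known to act on Spp1 transcription in bone cells.

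The 5 genes form 1 cluster. They lie on the plus strand of chromosome 5 of mm10 within 270 kb, in the order Dspp (ENSMUSG00000053268, chr5:104170712-104180127), Dmp1 (ENSMUSG00000029307, chr5:104202613-104214102), Ibsp (ENSMUSG00000029306, chr5:104299171-104311469), Mepe (ENSMUSG00000053863, chr5:104325329-104338611) and Spp1 (ENSMUSG00000029304, chr5:104435118-104441050). All are annotated as protein-coding. The short gene Gm42793 overlaps Spp1 on the same strand and held 138 counts over all 13 libraries, against at least 3342 for Spp1 in each library. The RefSeq promoter table on GRCm38.p6, the assembly called mm10, had entries for 4 of the 5 members. The 250 bases before the start are shown for Spp1 and Mepe, the members that differed between the mutants, and for Ibsp, whose level followed another pattern. Each is on the plus strand and read 5′ to 3′. They span chr5:104434861-104435110 for Spp1, chr5:104325079-104325328 for Mepe and chr5:104299037-104299286 for Ibsp. The start is that of the RefSeq entry. For Ibsp it lies inside the gene as placed above, so that the last part of its window is within that gene. Capitals mark the matches to the motifs described next.
Spp1: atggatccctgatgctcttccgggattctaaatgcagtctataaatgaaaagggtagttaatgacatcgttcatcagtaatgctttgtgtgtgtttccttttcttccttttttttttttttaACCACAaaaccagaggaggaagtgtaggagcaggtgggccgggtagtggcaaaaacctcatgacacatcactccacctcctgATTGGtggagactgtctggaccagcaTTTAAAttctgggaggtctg
Mepe: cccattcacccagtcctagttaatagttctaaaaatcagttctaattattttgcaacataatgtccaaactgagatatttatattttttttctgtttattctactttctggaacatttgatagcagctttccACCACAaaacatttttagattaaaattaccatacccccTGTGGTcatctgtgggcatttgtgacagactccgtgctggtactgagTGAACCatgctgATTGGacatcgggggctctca
Ibsp: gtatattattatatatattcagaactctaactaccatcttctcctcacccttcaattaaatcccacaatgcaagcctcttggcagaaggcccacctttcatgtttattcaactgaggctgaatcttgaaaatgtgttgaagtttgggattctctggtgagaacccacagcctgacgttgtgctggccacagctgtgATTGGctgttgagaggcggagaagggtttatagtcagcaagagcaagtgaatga

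Motifs were searched on both strands, with distances taken from the RefSeq start. The core bound by RUNX factors, ACCACA, stood once in the Spp1 window, starting 128 bases before that start. In the Mepe window it stood at 2 places, 118 bases before the start on the plus strand and 80 bases before it on the minus strand. That core was found in 4614 of 32851 promoters of the same length, and the Ibsp window held none. A CCAAT box, read here as ATTGG because it lay on the minus strand, stood in all 3 windows and in 33.8% of all promoters. It lay 46 bases before the RefSeq start of Spp1, 54 before that of Ibsp and 21 before that of Mepe. The Ibsp match falls inside the gene as placed above. The Spp1 window also held TTTAAA, 20 bases before the start, as did 12.1% of all promoters. Half-sites of the vitamin D receptor were searched as AGGTCA and its variants GGTTCA (first variant), AGTTCA (second variant) and GGGTCA (last variant), and 38.6% of all promoters held one. Among the members with an entry, the Mepe window held 1 half-site, printed as TGAACC on the minus strand 33 bases before the start. Dmp1, the member with an entry whose window is not printed, held 1 RUNX core, 1 CCAAT box and 1 TTTAAA. No window held 2 half-sites as a direct repeat with 3 bases between them, which 0.0396% of all promoters did. These matches describe letters in a short window and say nothing about binding.

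Total counts ran from 20405188 to 87783466 per library, so that counting error was small for every member but Mepe. The libraries held no identical pair. Of the odontoblast list, 18 of 18 genes were counted in every library. Some of them, such as Sp7, also stand on the osteoblast and osteocyte list read below, so that this count does not single out odontoblasts. Libraries also stood apart. The summed level of 11 cornified keratinocyte genes, which mark skin and oral surface epithelium, ran from 28.7 to 542 CPM in controls and from 24.0 to 136 CPM in VDR-null. In VDRgem 1, 2 and 3 it was 17023, 3941 and 316 CPM. Of the defining genes, Krt1 averaged 3.51 CPM in controls, 980 CPM in VDRgem and 1.11 CPM in VDR-null, while Ivl was at 0 in 10 libraries and Flg in 8. The summed level of 12 skeletal muscle genes was highest in VDR-null 3, at 791 CPM, and ran from 8.62 to 33.8 CPM in controls. The count of Vdr, at 164 ± 15.8 CPM in controls (SD, n = 5), 164 ± 50.9 in VDRgem (n = 3) and 242 ± 32.7 in VDR-null (n = 5), does not check the labels, since neither mutant is stated to lack the transcript. Between VDRgem and VDR-null the log2 fold change of Vdr was -0.56 (edgeR adjusted p = 0.0397). All 5 VDR-null libraries lay above every control in Vdr (0.56, edgeR adjusted p = 0.0618), where 7.09% of all genes did not overlap. Because libraries stood apart, values below are also given without VDRgem 1 or VDR-null 3 where that matters.

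Dspp dominated the family. The 5 members together made up 1.64% to 3.27% of a library's counts, and Dspp supplied 91.3% to 95.8% of them. By mean CPM in controls Dspp ranked 4 among 17837 genes, Ibsp 153, Dmp1 206, Spp1 364 and Mepe 13819. To compare genes with one another, CPM was divided by exon length in kb, which is FPKM. Mean FPKM in controls was 4159 for Dspp, 247 for Ibsp, 164 for Spp1, 144 for Dmp1 and 0.687 for Mepe (SD 545, 51.3, 73.2, 31.6 and 0.662, n = 5). Dspp was first, Ibsp second and Mepe last in each of the 13 libraries. Spp1 and Dmp1, which lay next to each other, exchanged places: Spp1 exceeded Dmp1 in 7 libraries (controls 3, 4 and 5, all VDRgem and VDR-null 2) and Dmp1 exceeded Spp1 in 6. In controls the difference between these neighbours was smaller than their spread. Dspp stood at 8.88 to 20.6 times Ibsp in FPKM, and Ibsp at 1.53 to 3.39 times Dmp1.

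Dspp, cut after translation into dentin sialoprotein and dentin phosphoprotein, was the most abundant member in every tooth. It stood at 21297, 17912, 15901, 20568 and 16471 CPM in controls 1 to 5. VDRgem 1 to 3 held 20483, 17689 and 26788 CPM, and VDR-null 1 to 5 held 15889, 28919, 32280.5, 14519 and 20681 CPM. The groups overlapped, with VDR-null holding both the lowest and the highest library. The coefficient of variation, the SD over the mean, was 13.1% in controls and 35.0% in VDR-null. Dmp1, which binds collagen and starts mineral deposition, stood at 422, 342, 358, 542 and 331 CPM in controls, 499, 356 and 483 CPM in VDRgem, and 268, 338, 752, 353 and 337 CPM in VDR-null. Dmp1 overlapped between all groups, and VDR-null 3 lay far above the other VDR-null libraries.

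Ibsp was the second most abundant member. Controls held 482, 415, 599.8, 644 and 415 CPM. VDRgem held 895, 770.1 and 845 CPM, and VDR-null held 553, 733, 1239.5, 763 and 853 CPM. All 3 VDRgem libraries lay above every control, and 4 of 5 VDR-null libraries did, the exception being VDR-null 1. VDR-null 3 was the highest library for Ibsp as for Dspp and Dmp1.

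Spp1 stood at 196, 158, 426, 374 and 199 CPM in controls, 557, 384 and 365 CPM in VDRgem, and 126, 201, 262, 150.3 and 186 CPM in VDR-null. Every VDRgem library lay above every VDR-null library, and controls spread across both, with controls 3 and 4 inside the VDRgem range and controls 1, 2 and 5 inside the VDR-null range. Mepe was near the limit of detection, at 15, 1, 188, 79 and 46 counts in controls, 389, 35 and 115 counts in VDRgem, and 4, 27, 28, 9 and 18 counts in VDR-null. In CPM these were 0.484, 0.0473, 2.84, 1.66 and 0.739 in controls, 7.46, 0.770 and 1.40 in VDRgem, and 0.0573, 0.484, 1.13, 0.175 and 0.458 in VDR-null. VDRgem 1 was the highest library for Mepe, and VDRgem 2 lay within the VDR-null range. In whole teeth, fewer cells of a type and less RNA per cell cannot be told apart.

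**Figure D1:**
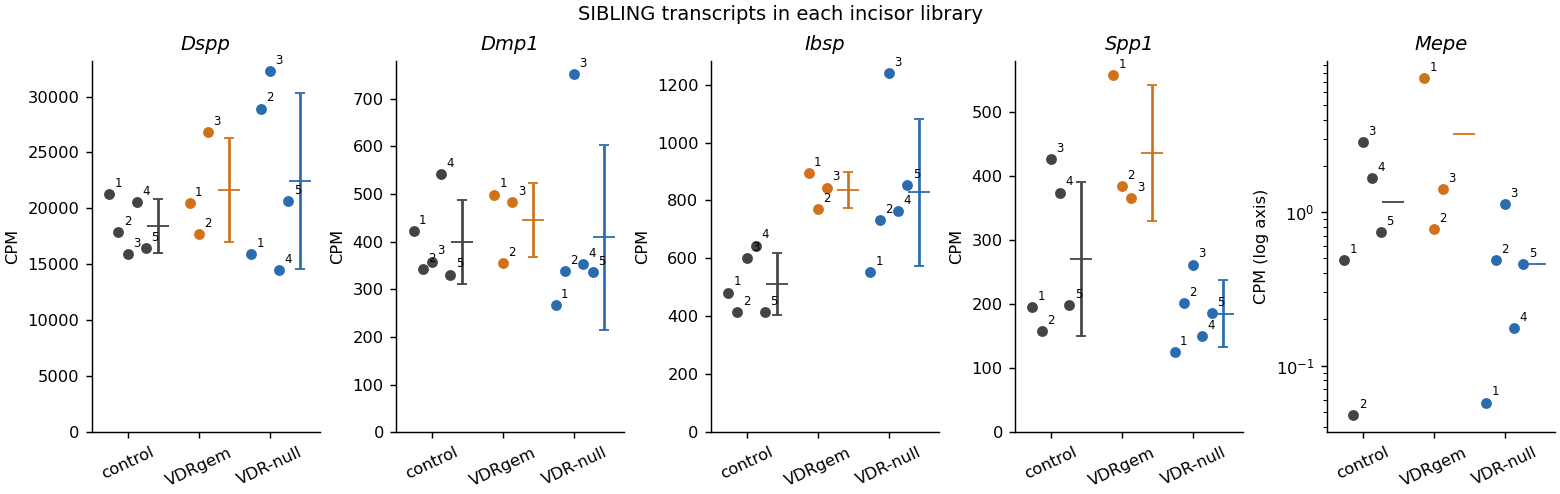
Level of each SIBLING gene in CPM (vertical axis, logarithmic for Mepe and from 0 for the others) in control (n = 5), VDRgem (n = 3) and VDR-null (n = 5) libraries. Points are libraries and bars the mean ± SD, except for Mepe, where the mean alone is drawn. Ibsp in VDRgem, at 770.1 to 895 CPM, lies above every control, while Dspp and Dmp1 overlap between all groups.

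Between VDRgem and control no SIBLING gene passed edgeR's quasi-likelihood test at an adjusted p under 0.05, a threshold that 8.62% of all tested genes passed. All 5 log2 fold changes were above 0, with a median of 0.69 against 0.00 over all genes, of which 50.1% were above 0. Ibsp came closest, at 837 ± 62.9 CPM (SD, n = 3) in VDRgem against 511 ± 106 (SD, n = 5) in controls. Its log2 fold change was 0.71 (SE 0.21, 95% interval 0.25 to 1.17, edgeR adjusted p = 0.0538). Ibsp was the 1 member of 5 whose groups did not overlap, and 19.3% of all genes did not overlap in this comparison. The Ibsp call depended on the test: DESeq2 gave an adjusted p of 0.0125, edgeR on only the groups compared gave 0.0211, and edgeR without VDRgem 1 gave 0.209. Spp1 stood at 436 ± 106 against 270.5 ± 121 CPM, a log2 fold change of 0.69 (SE 0.31, interval 0.02 to 1.35, edgeR adjusted p = 0.196). At an unadjusted p under 0.05, 2 of 5 members passed, against 23.9% of all genes.

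For the genes of dentin the intervals spanned 0. Dspp had a log2 fold change of 0.23 (SE 0.25, interval -0.30 to 0.76) and Dmp1 of 0.16 (SE 0.28, interval -0.44 to 0.76) between VDRgem and control. Mepe had 1.41 (SE 0.88, interval -0.47 to 3.29), and this value turned to -0.16 without VDRgem 1. The edgeR adjusted p-values were 0.617, 0.781 and 0.358.

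Between VDR-null and control again no SIBLING gene passed the edgeR test, where 1.33% of all genes did. Ibsp stood at 828 ± 254 CPM (SD, n = 5) in VDR-null, a log2 fold change of 0.70 over control (SE 0.19, interval 0.29 to 1.10, edgeR adjusted p = 0.0637). The DESeq2 adjusted p for Ibsp was 0.00773, so that the call again depended on the tool. Without VDR-null 3, where muscle genes were highest, the Ibsp log2 fold change was 0.51 (edgeR adjusted p = 0.0759). Spp1 stood at 185 ± 52.1 CPM, with a log2 fold change of -0.55 (SE 0.27, interval -1.14 to 0.04, edgeR adjusted p = 0.249), which without control 3 was -0.34. For Mepe it was -1.51 (SE 0.86, interval -3.37 to 0.34, edgeR adjusted p = 0.311) and without control 3 -0.88. Of 5 members 3 had values above 0, with a median of 0.04 against 0.01 over all genes. No member was without overlap, against 7.09% of all genes, and 1 of 5 passed an unadjusted p under 0.05, against 22.8%.

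Dspp and Dmp1 gave log2 fold changes of 0.29 (SE 0.21, interval -0.18 to 0.75) and 0.04 (SE 0.24, interval -0.49 to 0.56) between VDR-null and control. The edgeR adjusted p-values were 0.451 and 0.948. The Dmp1 value turned to -0.30 without VDR-null 3 (edgeR adjusted p = 0.251).

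Of the SIBLING genes, Spp1 and Mepe differed between the 2 mutants. Between VDRgem and VDR-null, 18.8% of all genes passed the edgeR test, 10.6% of all genes being higher in VDRgem and passing it, and 2 of 5 SIBLING genes passed, both higher in VDRgem. At an unadjusted p under 0.05 the same count of 2 stood against 34.8% of all genes. Spp1 was 2.36-fold higher in VDRgem (interval 1.49 to 3.73, log2 fold change 1.24, SE 0.31, edgeR adjusted p = 0.0170), and its groups did not overlap, as was so for 18.0% of all genes. Mepe was 7.58-fold higher (interval 1.88 to 30.5, log2 fold change 2.92, SE 0.94, edgeR adjusted p = 0.0441), with 2 of 3 VDRgem libraries above every VDR-null library. With each of the 13 libraries left out in turn, Spp1 passed in 12 fits and Mepe in 5. Without VDRgem 1 neither passed, and the log2 fold change of Spp1 was 1.01 (edgeR adjusted p = 0.106) and that of Mepe 1.38 (edgeR adjusted p = 0.399). Keratinocyte genes were also highest in VDRgem 1, and with their level as a covariate the log2 fold changes were 0.41 for Spp1 (edgeR adjusted p = 0.915) and 0.35 for Mepe (edgeR adjusted p = 0.977). That covariate, their mean log2 CPM, was 3.61 to 9.09 in VDRgem, at most 3.58 in controls and at most 2.27 in VDR-null. It largely follows the group, so that this fit cannot separate the 2. The part of other tissue in the Spp1 and Mepe differences was not tested. Robust dispersion and limma-voom also ended the Mepe call, at adjusted p = 0.0629 and 0.0672.

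The other members did not pass between the mutants. Ibsp had a log2 fold change of 0.01 (SE 0.22, interval -0.45 to 0.48), Dspp of -0.05 (SE 0.25, interval -0.59 to 0.48) and Dmp1 of 0.12 (SE 0.28, interval -0.48 to 0.73). The edgeR adjusted p-values were 0.972, 0.904 and 0.790. The median of the 5 members was 0.12 against -0.02 over all genes, and 4 of 5 were above 0, against 47.1%. The 3 comparisons share libraries, so that their values for a member are not independent of each other.

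**Figure D2:**
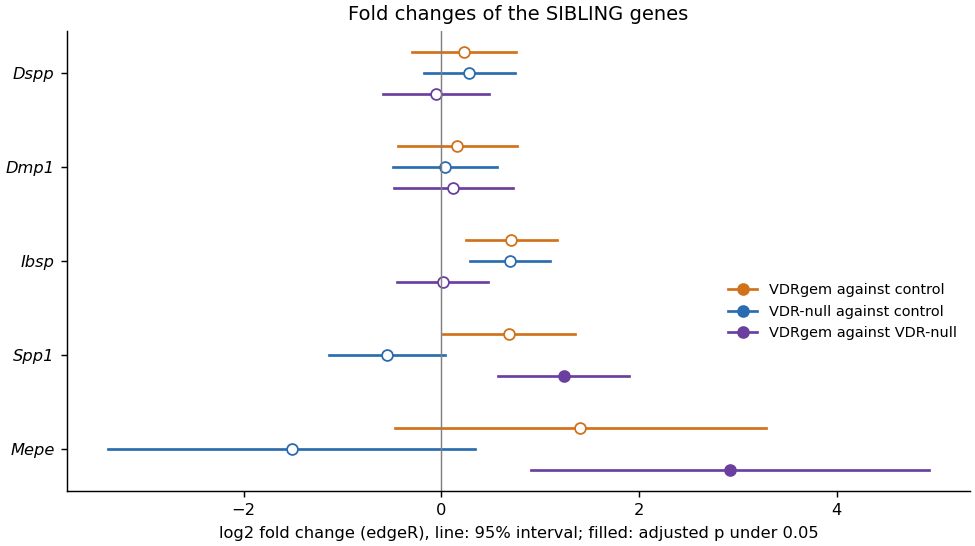
log2 fold change (horizontal axis) of each SIBLING gene in the 3 comparisons, with lines for the 95% interval and filled points for an edgeR adjusted p under 0.05. The filled points are Spp1 and Mepe between VDRgem and VDR-null, at 1.24 and 2.92.

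**Figure D3:**
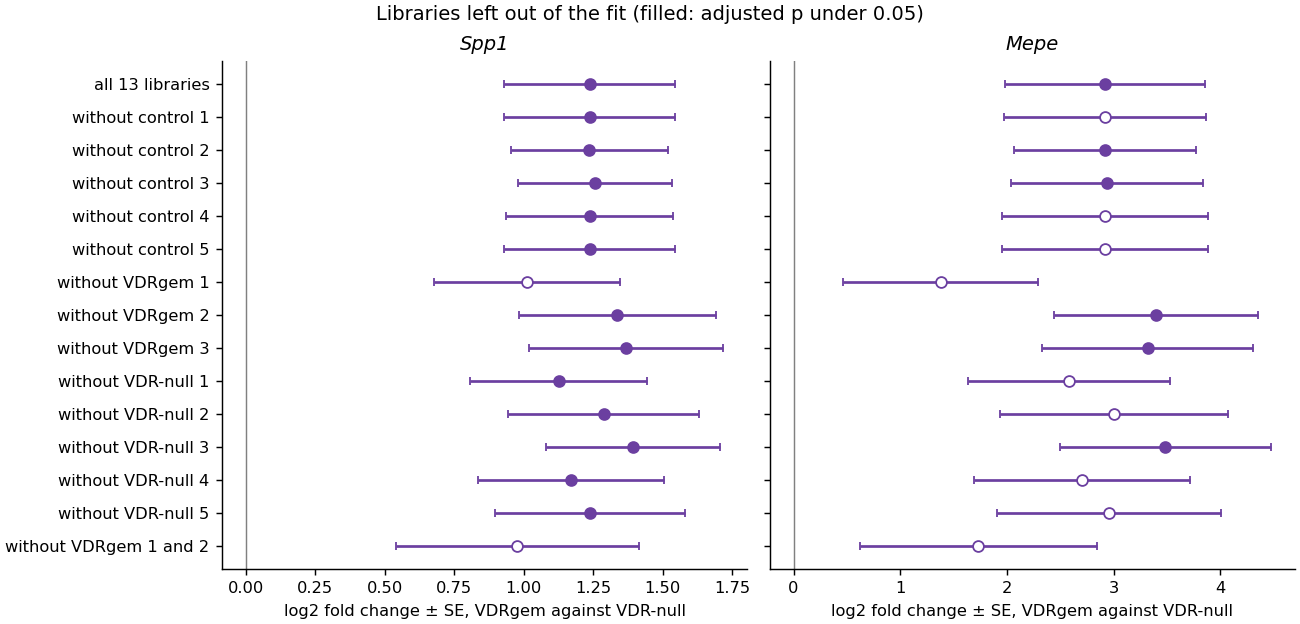
log2 fold change ± SE (horizontal axis) of Spp1 and Mepe between VDRgem and VDR-null in the fit of all libraries and with the libraries named on the vertical axis left out. Filled points have an edgeR adjusted p under 0.05. Without VDRgem 1 the values are 1.01 and 1.38 and neither point is filled.

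The members were then set against each other within a library, as ratios of CPM that do not depend on scaling. The ratio of Spp1 to Ibsp, 2 acidic proteins of bone that both bind integrins, was 0.381 to 0.710 in controls, 0.432 to 0.623 in VDRgem and 0.197 to 0.275 in VDR-null. Every VDR-null library lay below every control and every VDRgem library in this ratio, and the controls and VDRgem overlapped. Among all other genes set against Ibsp in the same way, 20.2% did not overlap between VDR-null and control, and 6.63% did not overlap between VDRgem and VDR-null. The ratio of Dmp1 to Ibsp was 0.597 to 0.875 in controls and 0.462 to 0.571 in VDRgem, without overlap, while 60.9% of genes did not overlap between those groups when set against Ibsp. In VDR-null that ratio was 0.395 to 0.607, which overlapped the lowest control. Of the 10 pairs of members, 1 did not overlap between VDRgem and control, 1 between VDR-null and control, and 6 between the mutants. The 6 were the ratios of Spp1 to Dspp, Dmp1 and Ibsp and of Mepe to the same 3 genes, all larger in VDRgem. They restate the differences of 2 genes and are not 6 separate results. Those of Mepe rest on few counts, such as 35 in VDRgem 2 and 28 in VDR-null 3, and Mepe itself overlapped in CPM. Over all other genes, 2.63% did not overlap between the mutants in their ratio to Dspp and 2.61% in their ratio to Dmp1. The ratio of Dspp to Dmp1 overlapped in all comparisons, at 37.9 to 52.4 in controls, 41.1 to 55.5 in VDRgem and 41.1 to 85.7 in VDR-null.

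Spp1 and Mepe varied together over the 13 libraries, with a Pearson r of 0.92 and a Spearman rho of 0.93 in log2 CPM. With the group means taken out r was 0.91, and without VDRgem 1 and control 3, the libraries farthest from the median of Spp1, it was 0.86. For Dspp and Dmp1 r was 0.66 and rho 0.47, and with the group means out r was 0.69. For Ibsp with Dmp1 and with Spp1, r was 0.60 and 0.40 over all libraries and 0.87 and 0.84 with the group means out. Without VDR-null 3 and control 4, the libraries farthest from the median of Dmp1, r of Ibsp and Dmp1 over all libraries was 0.41. The lowest r among the 10 pairs was that of Dspp and Spp1, at 0.22. These coefficients describe 13 libraries that share depth and tissue makeup, and they have no test.

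**Figure D4:**
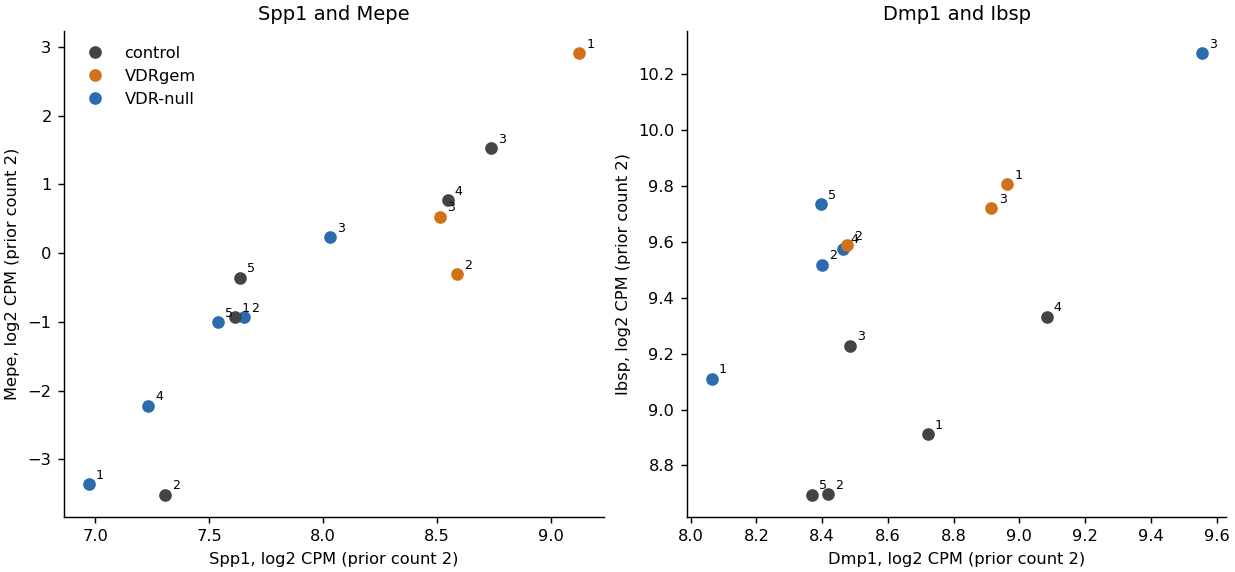
Levels of 2 pairs of SIBLING genes in log2 CPM with a prior count of 2, 1 point per library, coloured by group and numbered by replicate. Spp1 and Mepe lie along 1 line over all 13 libraries (r = 0.92), while for Dmp1 and Ibsp (r = 0.60) the VDRgem libraries lie at higher Ibsp than every control.

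The genes most like each member over the 13 libraries were taken from 14168 genes that averaged 1 CPM or more. For Dspp they were Plat, a plasminogen activator, Tgfb3, a growth factor, Pcsk5, a proprotein convertase, Ablim3 and Mypn, with r from 0.93 to 0.94. For Dmp1 they were Slc45a3, Qpctl, Tmed1, Pcolce, which enhances procollagen processing, and Kazald1, with r from 0.87 to 0.91. For Ibsp they were Gucy1b2, Antxr2, a receptor that binds matrix, Slc16a10, Apba2 and Fads3, with r from 0.88 to 0.92. Spp1 was most like Slc35f6, Mepe, Sdc4, a heparan sulfate proteoglycan of the cell surface, Lipc and Col13a1, a transmembrane collagen, with r from 0.90 to 0.93. Mepe was most like Spp1, Lipc, Mst1r, Dapk2 and Slc6a6, with r from 0.87 to 0.92, so that Lipc stood on both lists. The likeness is a description of the same libraries and includes the differences between groups.

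Enzymes that phosphorylate, cut or crosslink the SIBLING proteins were read from a list of 21 genes, of which 20 were tested. In VDRgem 4 of 20 rose over control and none fell, beside 8.62% of all genes called either way, with a median log2 fold change of 0.31. The 4 were Mmp2, a gelatinase that can cut Dspp (0.54, SE 0.10), Pcsk6, a proprotein convertase (0.48, SE 0.11), Mmp14, which activates Mmp2 (0.42, SE 0.12), and Klk4, a protease of maturing enamel (0.81, SE 0.24). Their edgeR adjusted p-values were 0.0117, 0.0228, 0.0375 and 0.0494, and without VDRgem 1 no gene of the list was called. With any 1 of the 5 controls or VDRgem 2 left out, 1 or 2 were called. Fam20c, the kinase that phosphorylates the SIBLING proteins, had 0.29 (edgeR adjusted p = 0.428), and Bmp1, the protease that cuts Dspp and Dmp1, had 0.33 (edgeR adjusted p = 0.252). Alpl, which frees phosphate for mineral, and Ctsb, a lysosomal protease, were among the most abundant and had 0.25 and 0.32. In VDR-null none of the 20 was called and the median was 0.01. Between the mutants 6 of 20 were higher in VDRgem and none lower, beside 10.6% of all genes called higher. The count was 0 without VDRgem 1, 1 with only the groups compared, 3 without VDR-null 5, 4 without VDR-null 4, 9 without VDR-null 2 and 10 without VDR-null 3.

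Receptors of the SIBLING proteins were read from 11 genes, Cd44 and integrin subunits, all of them tested. Over all genes, 8.62% were called in VDRgem against control, 1.33% in VDR-null against control and 18.8% between the mutants. Itgb3, the subunit of the osteoclast receptor for osteopontin (0.74, SE 0.18, edgeR adjusted p = 0.0252), and Itgb5 (0.57, SE 0.13, edgeR adjusted p = 0.0199) rose in VDRgem over control, and none fell. Itgb1, the most abundant subunit, had 0.18, and Cd44, which also binds osteopontin, had 0.63 (edgeR adjusted p = 0.0820). In VDR-null none was called. Between the mutants Itgb3, Itgb5 and Cd44 were higher and Itga4 lower in VDRgem. Without VDRgem 1 no receptor was called against control and 1 was called against VDR-null. Without control 2 or control 5, 1 was called against control.

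Genes of the cells that make these proteins were read from lists for odontoblasts and for osteoblasts and osteocytes, beside 8.62% of all genes called in VDRgem and 1.33% in VDR-null. Of 18 odontoblast genes, Dlx5, a homeobox factor, fell in VDRgem (-0.57, edgeR adjusted p = 0.0364) and in VDR-null (-0.63, edgeR adjusted p = 0.0420), and Lef1, a Wnt effector, fell in VDRgem (-0.72, edgeR adjusted p = 0.0212). Col1a1 and Col1a2, the chains of collagen I, had 0.45 and 0.62 in VDRgem and -0.22 and 0.00 in VDR-null against control, without a call. Of 14 tested osteoblast and osteocyte genes, Pth1r, the parathyroid hormone receptor, rose in VDRgem (0.52, edgeR adjusted p = 0.0376) and Phospho1, a phosphatase of matrix vesicles, fell in VDR-null (-1.48, edgeR adjusted p = 0.0490) at a mean of 0.56 CPM in controls. Bglap, osteocalcin, had -0.02 and -0.32. The list medians lay between 0.00 and 0.07 against control for both lists. Without VDRgem 1 or without control 5 neither list held a call in VDRgem against control, and Pth1r was also lost without control 2, 3 or 4 or VDRgem 2, with library totals and with limma-voom. The odontoblast calls in VDRgem fell from 2 to 1 without any 1 of controls 1 to 4, VDRgem 2 or VDRgem 3. In VDR-null both calls were lost without any 1 of controls 1 to 4, VDR-null 1, 2 or 5 or VDRgem 2, and Phospho1 also without control 5 or VDR-null 4. The Phospho1 call was also lost with no low-count filter and with DESeq2, which called 2 genes of its list higher and 0 lower.

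Osteoclast and macrophage genes were read because both cell types make Spp1. Against control, 8.62% of all genes were called in VDRgem and 1.33% in VDR-null, and 50.1% and 51.5% had values above 0. Of 13 osteoclast genes, Itgb3 was called in VDRgem over control, though not without VDRgem 1, control 2 or control 5, and 13 of 13 had values above 0, with a median of 0.48. In VDR-null none was called, 3 of 13 were above 0 and the median was -0.11. Between the mutants 4 of 13 were higher in VDRgem, beside 10.6% of all genes, with a median of 0.59. The 4, of which Acp5 and Nfatc1 were named after their values were seen, were Acp5, the tartrate-resistant phosphatase that acts on osteopontin (1.14), Mmp9 (0.78), Itgb3 (0.68) and Nfatc1 (0.55). Ctsk, the collagen-cutting protease of osteoclasts, had 0.59 (edgeR adjusted p = 0.0574). Acp5, Mmp9 and Ctsk also stand on the enzyme list and Itgb3 on the receptor list. Calls of a shared gene are the same result and not separate ones. The summed level of the 13 genes was 743 to 1056 CPM in controls, 1022 to 1625 CPM in VDRgem and 504 to 1037 CPM in VDR-null, and none of the 13 was at 0 in any library. Between the mutants 13 of 13 had values above 0, as Spp1 and Mepe did, beside 47.1% of all genes. By library the summed level did not separate the mutants, with VDRgem 2 at 1022 CPM and VDR-null 2 at 1037 CPM. The part of osteoclast genes in the Spp1 and Mepe differences was not tested. Without VDRgem 1, or with only the groups compared, none of the 13 was called in the comparison of the mutants, and 2 were called without VDR-null 5. Of 13 macrophage genes, Gpnmb rose in VDRgem (1.01, edgeR adjusted p = 0.0100) and Adgre1, which encodes the F4/80 antigen, rose in VDR-null (0.76, edgeR adjusted p = 0.0373). As with the osteoclast genes, 13 of 13 had values above 0 in VDRgem, with a median of 0.33. In VDR-null 12 of 13 did, with a median of 0.25. The summed level of the macrophage genes was 310 to 374 CPM in controls, 364 to 518 in VDRgem and 358 to 493 in VDR-null. The Gpnmb call was lost without VDRgem 1, and the Adgre1 call without any 1 of controls 1 to 4, VDR-null 1, VDR-null 2 or VDRgem 2.

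Kin of the SIBLING genes among the secreted calcium-binding phosphoproteins of enamel, with Sparc and Sparcl1, were 8 tested genes. The lists of this paragraph stand beside 8.62% of all genes called in VDRgem and 1.33% in VDR-null. In VDRgem Odam, made by maturing ameloblasts (0.90, edgeR adjusted p = 0.0178), and Gm17660, the gene now called Scpppq1 (1.57, edgeR adjusted p = 0.0122), rose over control, and none was called in VDR-null. Amelx, amelogenin, had -0.03 and -0.23, and Sparc, osteonectin, had 0.47 and 0.26. Of 6 tested vitamin D response genes, Cyp24a1, the enzyme that inactivates the hormone, fell in VDRgem (-1.43, edgeR adjusted p = 0.0364) at a mean of 0.402 CPM in controls and had -0.47 in VDR-null (edgeR adjusted p = 0.388). Calb1, a calcium-binding protein, had 0.15 and -0.18. Of the 6 genes, 3 had values above 0 in VDRgem (median 0.07) and 0 in VDR-null (median -0.26), beside 50.1% and 51.5% of all genes. Their mean log2 CPM was 4.33 to 4.59 in controls, 4.16 to 4.65 in VDRgem and 4.04 to 4.25 in VDR-null. Without VDRgem 1 neither of the enamel calls was made. The Cyp24a1 call was lost without any 1 of the 8 control and VDRgem libraries, and also with no low-count filter. Keratinocyte genes rose in VDRgem for 10 of 11 (median 5.42) and for none in VDR-null (median -0.60), and without VDRgem 1 for 3 of 11 in VDRgem. Of 12 muscle genes 1, Myh3, was called in VDRgem and none in VDR-null by edgeR. In both, 12 of 12 had values above 0, beside 50.1% and 51.5% of all genes, with medians of 2.71 and 3.36. The libraries of a group differed in the summed muscle level. It was 299.7, 58.3 and 36.6 CPM in VDRgem 1 to 3, against at most 33.8 CPM in controls. VDR-null 3 held 791 CPM and VDR-null 5 held 78.9 CPM. VDR-null 1, at 5.03 CPM, lay below every control, and VDR-null 2 and 4 lay within the control range. With only the groups compared 11 muscle genes were called in VDRgem, and DESeq2 called 5 in VDR-null.

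The neighbours of the cluster were read to place its genes in their region. Within 500 kb of the cluster 25 genes were counted, 5 of them SIBLING genes, and 14 others were tested. Against control, Gm17660 was the 1 neighbour called in VDRgem and none was called in VDR-null, beside 8.62% and 1.33% of all genes. The medians were 0.15 and 0.13. Sparcl1, a matricellular protein gene next to Dspp, had 0.50 in VDRgem (edgeR adjusted p = 0.0517) and 0.36 in VDR-null (edgeR adjusted p = 0.123). Between the mutants Gm17660 (1.02) and Gm42793 (2.198), the gene that overlaps Spp1, were higher in VDRgem, beside 10.6% of all genes called higher. Gm42793 lies within Spp1 on the same strand and averaged 0.411 CPM in VDRgem and 0.0886 CPM in VDR-null. Its call cannot be told apart from that of Spp1. The median of the 14 was 0.06. Pkd2, the nearest other tested protein-coding gene after Spp1, had -0.02 (edgeR adjusted p = 0.911). Ibsp, directly before Mepe, had 0.01.

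**Figure D5:**
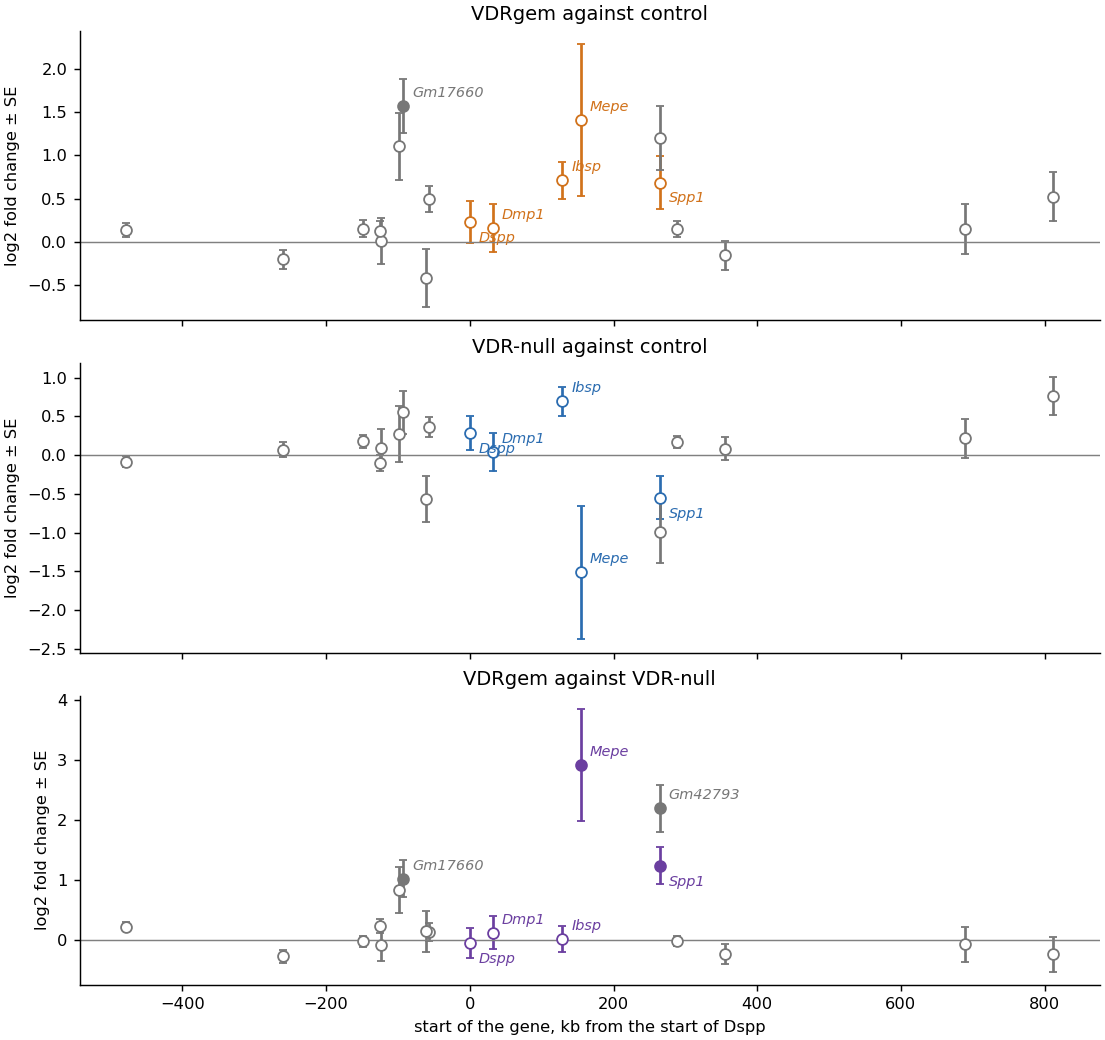
log2 fold change ± SE (vertical axis) of tested genes within 500 kb of the SIBLING cluster against the distance of their start from the start of Dspp in kb, with SIBLING genes named, for the 3 comparisons. Between VDRgem and VDR-null, Mepe (2.92), Gm42793 (2.198), Spp1 (1.24) and Gm17660 (1.02) lie highest.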

How the data were processed

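Poly-A RNA of 13 incisor samples was made into strand-marked libraries, per the labels. The authors deposited whole-number counts per Ensembl gene. The submitters' processing notes name HTSeq 0.6.1p1, STAR 2.5.3a, bcl2fastq 2.20.0.422 and the build mm10. Which annotation, counting mode and strand setting were used is not given in the sources used here.

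Symbols, coordinates and exon lengths came from GENCODE M21 on GRCm38 (34618 of 34709 genes matched), and promoters from RefSeq. The deposited counts were scaled by TMM and filtered at a minimum count of 10. All 13 libraries entered 1 edgeR 4.0.16 quasi-likelihood fit in R 4.3.3 with a mean per group, and p-values were Benjamini-Hochberg adjusted over 17837 genes. CPM is the count scaled to library size after TMM. Intervals are at 95%. The method was tested on counts simulated with 200 changed genes and the same dispersion for every gene. No library was made to stand apart there, so that test does not cover the effect of VDRgem 1. Alternatives used DESeq2 1.42.0, limma 3.58.1 (voom) and sva 3.50.0, other scalings, filters, dispersion, samples and a keratinocyte covariate. Figures used matplotlib 3.10.9 in Python 3.11.15.

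The members, the gene lists, the tests and the alternatives were chosen with earlier results of these data known. Besides the 5 members and Vdr, the rule named up to 4 members of each list called against control, by smallest p, up to 2 further members of highest mean CPM, the 5 genes most like each member by Pearson r of log2 CPM with a prior count of 2, and genes within 500 kb. Fam20c, Bmp1, Acp5, Nfatc1 and Itga4 were named after their values were seen. The lists were SIBLING-modifying enzymes, receptors, odontoblast, osteoblast and osteocyte, osteoclast, macrophage, enamel and SPARC kin, vitamin D response, cornified keratinocyte and skeletal muscle genes. Scpppq1 was matched as Gm17660. One list member that the rule would name is not reported here by name and stays in its list's counts.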

Additional observations from a re-analysis of the deposited data

Results flagged for a closer look

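The levels of 5 members in the groups of 5 libraries gave 10 sets, and in 1 set a library stood far from the others. Dmp1 in VDR-null 3 was 752 CPM, and its gap to the next VDR-null library took up 0.823 of the range of that group. Chance alone marks about 1 set in 20. The same library was highest in VDR-null for Dspp, Ibsp, Spp1 and Mepe and for skeletal muscle genes. The part of other tissue was not tested.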

How the results depend on the processing

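Between VDRgem and VDR-null the members called fell from 2 to 1 under robust dispersion, only the groups compared and limma-voom, where Mepe kept log2 fold changes of 2.92, 2.92 and 2.91 without a call. They fell to 0 with the keratinocyte covariate (Spp1 0.41, Mepe 0.35) and without VDRgem 1 and 2 (Spp1 0.98, Mepe 1.73), which leaves 1 VDRgem library assumed to vary like the other groups. Between VDRgem and control they rose from 0 to 1, Ibsp, with scaling that left out SIBLING and collagen I genes (0.73), no low-count filter (0.71), 1 surrogate variable (0.76), only the groups compared (0.71) and DESeq2 (0.72). Between VDR-null and control DESeq2 called 1, Ibsp (0.69).

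Signs of values without a call turned as follows. Between VDRgem and control Dmp1 was -0.012 with library totals and -0.18 with the keratinocyte covariate, where Mepe was -0.77. Between VDR-null and control Dmp1 was -0.014 with 1 surrogate variable and -0.024 with limma-voom. Between the mutants library totals gave Dmp1 -0.017 and Ibsp -0.13. There the keratinocyte covariate gave Dspp 0.14, Dmp1 -0.30 and Ibsp -0.38, and Dspp was 0.026 with 1 surrogate variable and 0.25 without VDRgem 1 and 2.

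With each library left out in turn, members called ranged from 0 to 1 between VDRgem and control, were 0 between VDR-null and control, and ranged from 0 to 2 between the mutants. Against control, log2 fold changes in VDRgem ranged from 0.64 to 0.81 for Ibsp and from -0.16 to 2.06 for Mepe, and in VDR-null from -0.30 to 0.17 for Dmp1. Between the mutants they ranged from 1.01 to 1.39 for Spp1, 1.38 to 3.49 for Mepe, -0.10 to 0.20 for Ibsp and -0.21 to 0.11 for Dspp. The 1 called member that held in 12 of 13 of these fits was Spp1.

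All genes called between VDRgem and control ranged from 66 (without VDRgem 1) to 2021 with a library left out, between VDR-null and control from 6 (without control 2) to 685 (without VDRgem 3), and between the mutants from 434 (without VDRgem 1) to 4610. The keratinocyte covariate, which largely follows the VDRgem group, left 0 between VDRgem and control and 10 between the mutants. The order by FPKM with Spp1 above Dmp1 held in 8 libraries with the longest transcript in place of 7, and 8 ratios without overlap were found with either prior count. The causes of these shifts were not tested. With 3 VDRgem libraries and 1 to 389 Mepe counts, small differences were not detectable. No paired analysis was possible because the replicate numbers are only accession order.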
